A study of Mus musculus with 14 samples.

Results

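The account concerns 44 genes of DNA replication and deoxynucleotide supply, taken from a list of names, of 18162 genes measured. Where a gene had several probe sets, the one brightest on average was used, and all 44 were measured. A chromosome is copied once per cell cycle. Origins are first bound by the origin recognition complex (Orc1, Orc2, Orc6) and then loaded with the MCM helicase (Mcm2 to Mcm7) by Cdc6 and Cdt1, a step that geminin (Gmnn) blocks. In S phase the helicase is switched on together with Cdc45 and the GINS complex, and polymerase alpha and primase lay primers. Polymerases delta and epsilon extend the primers with the sliding clamp, and ribonucleotide reductase and its neighbours supply the building blocks. In bone marrow, early B lineage progenitors alternate between divisions and pauses in which the immunoglobulin loci are rearranged, and large cycling pre-B cells are followed by small resting ones.

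Transcripts were measured on 14 Affymetrix arrays of sorted bone marrow cells of C57Bl6 mice, aged 8 to 12 weeks per the labels, in 6 groups. Pax5KO engrafted cells (3 arrays) and WT engrafted cells (3 arrays) descended from fetal liver of day 15 embryos, with or without a knockout of Pax5, the transcription factor that commits progenitors to the B lineage. Both donors carried a reporter for λ5, part of the surrogate light chain. Their cells had been given to wild type mice irradiated below a lethal dose, which keep blood-forming cells of their own, and 4 weeks later marrow cells that carried both B220 and the reporter were sorted. Ly6D- CLP and Ly6D+ CLP (common lymphoid progenitors without and with the surface protein Ly6D), ProB and PreB cells (2 arrays each) came from mice with no transplant. Sort gates of these 4 groups beyond their names, the deleted part of Pax5 and the number of animals behind an array are not given in the sources used here. Values are log2 signals. Differences are on the same scale, with their standard error (SE) from a limma fit to all 14 arrays, and a gene was called where its p adjusted over all 18162 genes was under 0.05. The arrays are labelled as biological replicates, so p-values measure the spread between such arrays.

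The table has a floor at 2.32, and a value within 0.5 of it is named as at the floor. The brighter Pax5 probe set read 7.57 to 7.95 in Pax5KO cells and 6.18 to 6.76 in WT engrafted cells, and since the deleted part is not given, these values do not check the genotype. The RNA of the inactive X chromosome, Xist, read over 10 in Pax5KO cells (3 of 3 arrays), ProB cells (2 of 2) and WT engrafted array 3, and was at the floor elsewhere. It therefore differs between the groups of several comparisons. The actin probe sets of the 3' and 5' ends, whose gap widens as RNA degrades, differed by 7.27 and 6.71 in PreB cells and by 2.51 to 5.57 on the other arrays. The Gapdh gap did not set PreB cells apart, at 4.88 and 4.35 against 2.40 to 5.79 on the other arrays. It was widest on Pax5KO array 3 (5.79) and WT engrafted array 3 (5.44). Of 8 granulocyte markers, 7 were above the floor on both PreB arrays, on Ly6D- CLP array 2 and on WT engrafted array 3, and 1 to 5 elsewhere. Of the 5 T cell markers, at most 1 was above the floor on any array, and Cd3e was at the floor on every array. The 8 B lineage markers summed to 44.9 and 45.0 in Ly6D- CLP and to between 81.1 and 92.3 on the arrays of the other 5 groups.

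The replication genes as a group were lowest in PreB cells and, on the deposited scale, stood at like levels in Pax5KO and ProB cells. All genes with a mean of at least 4, each centred on its mean, averaged 0.28, 0.22 and 0.04 on the Pax5KO arrays. On the ProB arrays these averaged -0.27 and -0.19. Relative to such genes the 44 thus lay lower in Pax5KO than in ProB cells. The mean over the 44 genes was 10.11 ± 0.11 in Pax5KO cells and 9.84 ± 0.18 in WT engrafted cells (SD, n = 3 each). In the cells without transplant it was 9.55 ± 0.24 in Ly6D- CLP, 9.66 ± 0.11 in Ly6D+ CLP, 10.10 ± 0.18 in ProB and 8.89 ± 0.05 in PreB cells (SD, n = 2 each). The PreB arrays read 8.92 and 8.85, below every other array, of which Ly6D- CLP array 2 was the lowest at 9.38. The Pax5KO arrays read 10.15, 10.19 and 9.99 against 9.67, 9.83 and 10.02 on the WT engrafted arrays, so WT engrafted array 3 lay above Pax5KO array 3. In sorted populations, fewer cells in S phase and less of these RNAs per cell cannot be told apart.

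**Figure D1:**
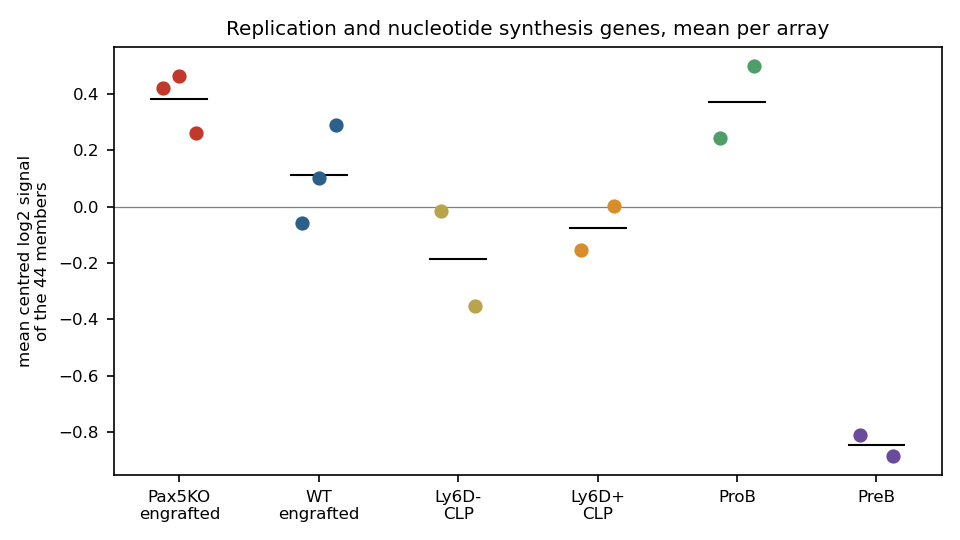
Mean log2 signal of the 44 genes on each array (points), after each gene was centred on its mean over the 14 arrays, with the mean of each group as a line. The PreB arrays sit at -0.81 and -0.88, below all others, and the Pax5KO arrays lie between 0.26 and 0.46.

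The groups differed in 26 of the 44 genes in limma's test over all 6 groups, a test that called 21.4% of all genes and 37.3% of the 8534 genes with a mean of at least 4 over the arrays. These genes included 6 of the 10 helicase genes, 4 of the 9 polymerase and primase genes, 4 of the 5 nucleotide synthesis genes and all 3 of the S phase regulators Ccne1, Ccne2 and E2f8. The count was 14 without PreB array 2, 15 without PreB array 3 and 16 with the replicate number as a block. PreB cells had the lowest group mean for 27 of the 44 genes, and the same held for 30.5% of the 8534 brighter genes. Pax5KO cells had the highest mean for 18 genes (17.0% of the brighter genes) and ProB cells for 14 (13.5%), and neither had the lowest mean for any of the 44.

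**Figure D2:**
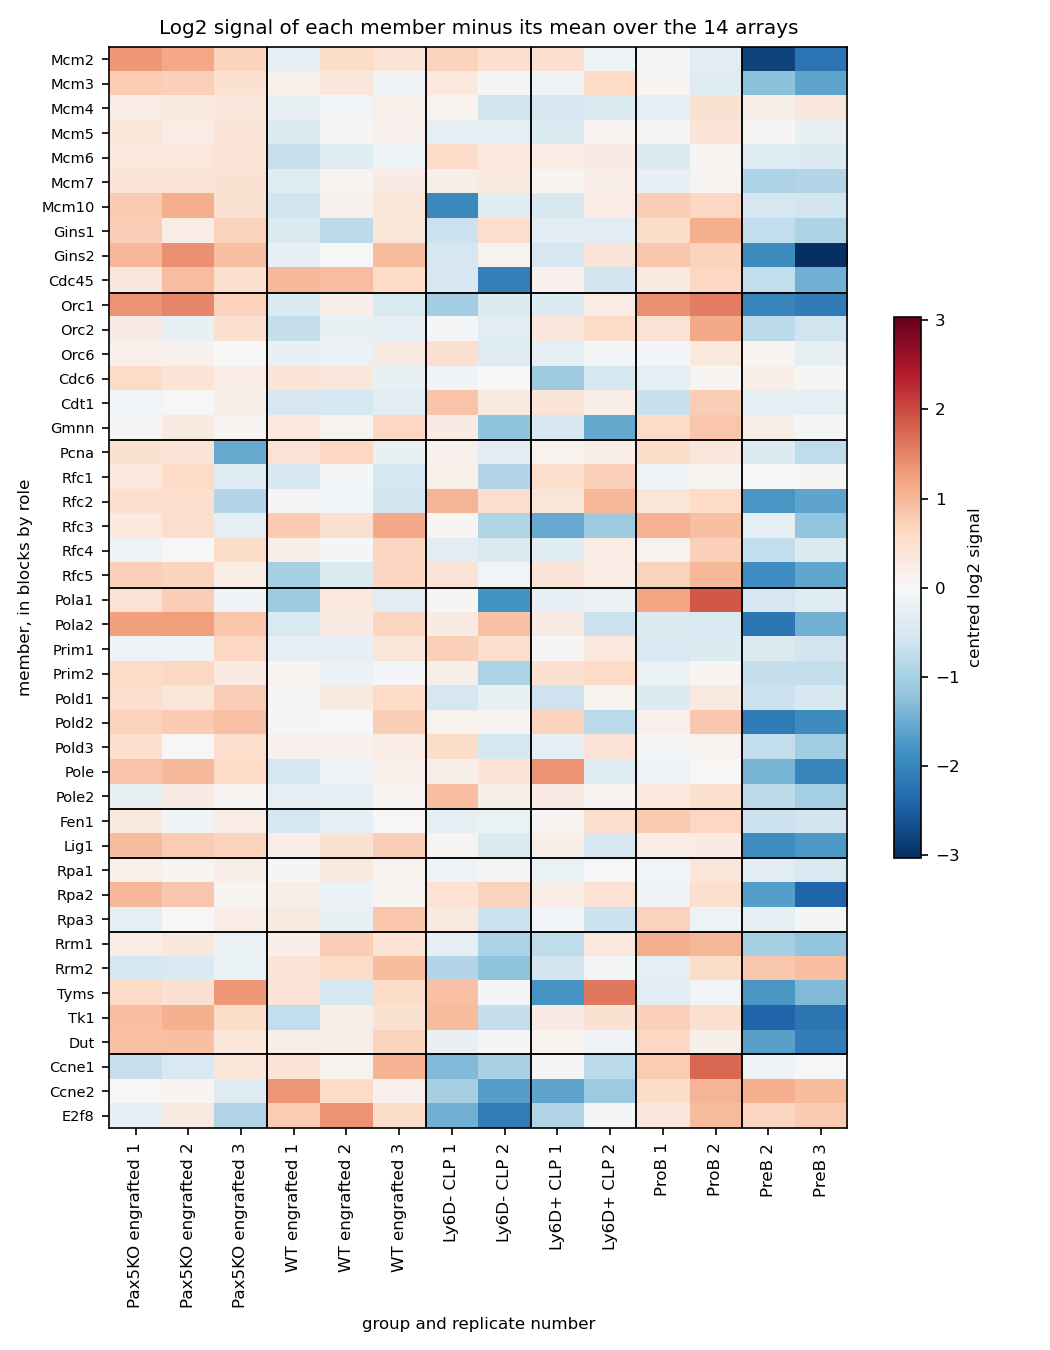
Log2 signal of each of the 44 genes (rows, in blocks by role) on each of the 14 arrays (columns), minus the gene's mean over all arrays. By group mean, 27 of the 44 rows are lowest in the PreB columns, and those of Rrm2 (by the probe set used), Ccne2 and E2f8 are among the others.

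The knockout comparison asks how cells that keep B220 and the λ5 reporter differ when they lack Pax5. Orc1 and Mcm6 rose in Pax5KO cells and Rrm2 fell, and no other of the 44 genes was called. The test called 5.95% of all genes, 3.65% upward and 2.3% downward (6.78% and 4.11% of the brighter genes), so 2 and 1 of 44 are near the background. The direction was more uniform than the calls. The difference was above 0 for 33 genes and below 0 for 11, with a median of 0.39, against 0.10 over the 8534 brighter genes. In 13 of the 44 genes all Pax5KO arrays lay above all WT engrafted arrays (12% of all genes, 20.7% of the brighter ones), and in 3 all lay below (7.65% and 13.7%). An unadjusted p under 0.05 was found for 13 of the 44 and for 15.2% of all genes.

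Orc1 encodes the largest subunit of the origin recognition complex. It read 6.47, 6.59 and 5.82 in Pax5KO cells, against 4.69, 5.31 and 4.65 in WT engrafted cells, and the groups did not overlap. It rose by 1.41 (SE 0.29, limma adjusted p = 0.0226), or 2.66-fold. The dimmer of its 2 probe sets differed by -0.17 (SE 0.44). Mcm6, a helicase subunit, read 13.18, 13.19 and 13.29 in Pax5KO cells, against 12.17, 12.51 and 12.71 in WT engrafted cells. The groups were again separate, with the spread lying mostly in the WT cells, and Mcm6 rose by 0.76 (SE 0.16, limma adjusted p = 0.0229). The other 5 subunits of the helicase ring were also higher on every Pax5KO array than on any WT engrafted array without being called, with differences of 0.81 for Mcm2, 0.52 for Mcm3, 0.34 for Mcm4, 0.40 for Mcm5 and 0.43 for Mcm7. Of the 10 helicase genes, 9 differed by more than 0 and 1 was called, with a median of 0.64. The exception was Cdc45, together with which the helicase is switched on, at -0.26. Among the 6 origin genes, 5 were above 0, and the licensing factor Cdt1 was separate between the groups (difference 0.51), while its inhibitor Gmnn differed by -0.22.

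All 9 polymerase and primase genes differed by more than 0 and none was called, with a median of 0.55. Pole, the catalytic subunit of the leading-strand polymerase epsilon, had the second largest difference among the 41 genes not called. It read 10.34, 10.46 and 10.08 in Pax5KO cells, against 8.94, 9.31 and 9.63 in WT engrafted cells, with a 95% interval of the difference of 0.09 to 1.91 (limma adjusted p = 0.258). Pola2, the accessory subunit of polymerase alpha, and Prim2, the large primase subunit, were separate as well, with differences of 0.96 and 0.55. The clamp and its loader showed no common direction: 3 of 6 were above 0, from -0.63 for Rfc3 to 0.81 for Rfc5. Pcna, the clamp itself, read 13.08, 13.01 and 11.08 in Pax5KO cells, against 13.06, 13.25 and 12.39 in WT engrafted cells, with array 3 the lowest in both groups. The flap nuclease Fen1 and the ligase Lig1, which finish lagging-strand fragments, differed by 0.40 and 0.34, and the single-strand binding proteins Rpa1, Rpa2 and Rpa3 by 0.02, 0.60 and -0.31.

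Ribonucleotide reductase, which makes deoxynucleotides, has a large subunit (Rrm1) and a small one (Rrm2) whose level follows the cell cycle. Rrm2 read 11.73, 11.80 and 12.06 in Pax5KO cells, against 12.69, 12.84 and 13.23 in WT engrafted cells. The groups did not overlap, and Rrm2 fell by 1.05 (SE 0.24, limma adjusted p = 0.0403). Its other 2 probe sets differed by -1.21 (SE 0.70) and -0.85 (SE 0.60) and were not called (limma adjusted p = 0.656 and 0.781 over all probe sets). Rrm1 differed by -0.34. Thymidine kinase (Tk1), which salvages thymidine, was higher on every Pax5KO array, with a difference of 0.88 (SE 0.44, limma adjusted p = 0.423), and the dUTPase Dut differed by 0.37 with overlap. The 3 regulators of S phase lay on the other side: the cyclins Ccne1 and Ccne2, partners of the kinase that starts S phase, differed by -0.79 and -0.80, and E2f8, a repressor of E2F target genes, had the largest difference of all genes not called. E2f8 read 9.30, 9.81 and 8.63 in Pax5KO cells, against 10.32, 10.91 and 10.10 in WT engrafted cells, separate groups with a difference of -1.20 (SE 0.38, limma adjusted p = 0.133).

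**Figure D3:**
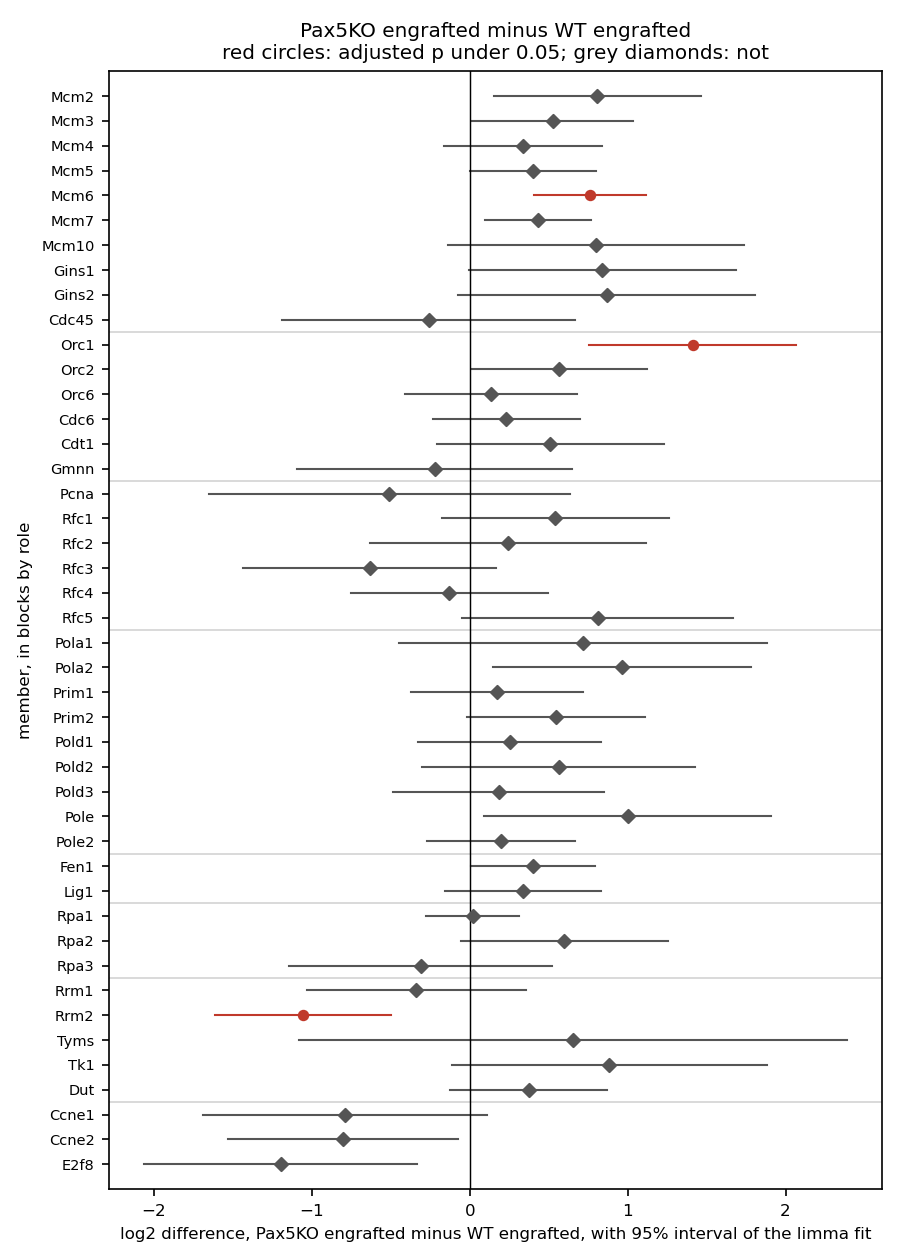
Log2 difference of each of the 44 genes, Pax5KO engrafted minus WT engrafted cells, with the 95% interval of the limma fit, in blocks by role. Orc1 (1.41), Mcm6 (0.76) and Rrm2 (-1.05) are called, all 9 polymerase and primase genes lie above 0 and Ccne1, Ccne2 and E2f8 below it.

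None of these 3 calls held under every array left out. Mcm6 lost it without Pax5KO array 1, 2 or 3 (limma adjusted p = 0.0717, 0.0704 and 0.072) or WT engrafted array 1 or 2 (0.0633 and 0.0622). Orc1 lost it without Pax5KO array 1 or 2 (limma adjusted p = 0.092 and 0.0896) or WT engrafted array 1 or 3 (0.0927 and 0.0725), and when its 2 probe sets were averaged (difference 0.62, limma adjusted p = 0.269). Averaging also ended the Rrm2 call (-1.04, limma adjusted p = 0.268) and gave one to Mcm3 (0.57, limma adjusted p = 0.0312). Rrm2 lost it without any of the 6 engrafted arrays (limma adjusted p = 0.0619 to 0.145), and also without either PreB array (0.0704) or either Ly6D- CLP array (0.0543). None of the 44 was called without Pax5KO array 1 or 2 or WT engrafted array 1, and Orc1 alone without Pax5KO array 3 or WT engrafted array 2. Without WT engrafted array 3, Mcm6 and Rfc5 (1.27, limma adjusted p = 0.0242) were called. With the replicate number of the engrafted arrays as a block, 1 gene was called, Orc1, and the limma adjusted p was 0.0572 for Mcm6 and 0.0617 for Rrm2. With the array medians set equal, E2f8 gained a call (-1.29, limma adjusted p = 0.027) and Mcm6 lost it (0.67, limma adjusted p = 0.066). Xist was high on all Pax5KO arrays and on WT engrafted array 3, and with a term for it none was called and the median difference was 0.13. The 5 markers of later B cells summed to 17.3 to 22.3 in Pax5KO cells against 51.2 to 55.6 in WT engrafted cells. The 6 lymphoid progenitor markers summed to 49.97 to 55.16 in Pax5KO cells against 39.1 to 44.1 in WT engrafted cells, led by Flt3 (8.74 to 9.98 against 3.39 to 3.66). Ly6d went the other way (9.39 to 9.93 against 10.14 to 11.22), and Cd34 was at the floor on every engrafted array. Of the 5 plasma cell markers, Jchain read 11.78 to 12.54 in Pax5KO cells against 2.93 to 6.41 in WT engrafted cells. Sdc1 went the other way (5.72 to 6.93 against 8.67 to 10.13), Xbp1 and Igha overlapped and Prdm1 was at the floor. The part of cell stage and of other cell types in these differences was not tested.

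The promoters of Orc1 and Mcm6, which rose in Pax5KO cells, are shown beside those of both reductase subunits, of which only Rrm2 fell, because E2F factors and NF-Y are the usual regulators of such genes. The bases run from 250 before the RefSeq start site to the last base before it, on the gene's strand (GRCm38.p6, RefSeq). Capitals mark letters of an E2F motif (TTTCGCGC, TTTGGCGC, TTTCCCGC or TTTGCCGC) or of the NF-Y motif CCAAT on either strand, and overlapping matches run together. The windows are chr4:108579204-108579453 (plus strand) for Orc1, chr1:128359706-128359955 (minus strand) for Mcm6, chr12:24708004-24708253 (plus strand) for Rrm2 and chr7:102441445-102441694 (plus strand) for Rrm1.
Orc1: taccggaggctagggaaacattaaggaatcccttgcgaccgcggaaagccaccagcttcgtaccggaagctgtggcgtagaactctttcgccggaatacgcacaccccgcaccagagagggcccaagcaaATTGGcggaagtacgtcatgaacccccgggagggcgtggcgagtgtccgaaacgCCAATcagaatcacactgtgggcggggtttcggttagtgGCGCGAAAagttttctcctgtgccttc
Mcm6: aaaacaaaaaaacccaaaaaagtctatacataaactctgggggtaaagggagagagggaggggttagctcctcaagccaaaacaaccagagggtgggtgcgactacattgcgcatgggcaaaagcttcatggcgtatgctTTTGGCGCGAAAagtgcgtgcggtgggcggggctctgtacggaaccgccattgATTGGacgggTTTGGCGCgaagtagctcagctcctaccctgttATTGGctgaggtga
Rrm2: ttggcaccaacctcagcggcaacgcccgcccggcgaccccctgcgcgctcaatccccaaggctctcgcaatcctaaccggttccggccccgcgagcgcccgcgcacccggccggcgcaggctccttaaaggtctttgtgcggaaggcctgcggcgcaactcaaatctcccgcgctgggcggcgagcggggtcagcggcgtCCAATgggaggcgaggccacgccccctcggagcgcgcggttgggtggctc
Rrm1: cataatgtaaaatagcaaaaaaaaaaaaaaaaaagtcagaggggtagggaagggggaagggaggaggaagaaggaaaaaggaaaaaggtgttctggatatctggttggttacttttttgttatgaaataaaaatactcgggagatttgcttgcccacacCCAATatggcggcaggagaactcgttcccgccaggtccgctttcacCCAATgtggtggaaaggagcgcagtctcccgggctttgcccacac

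Orc1 held 1 E2F match, whose first base is at position -27 from the start site, and 2 NF-Y matches. Mcm6 held 3 E2F matches, of which 2 overlap on opposite strands, and 2 NF-Y matches. Rrm2 held 1 NF-Y match and Rrm1 held 2, and neither held an E2F match. RefSeq windows of 250 bases before to 50 after the start site were found for 36 of the 44 genes, and 13 of the 36 (36.1%) held an E2F match, against 3.80% of the 14462 genes on the arrays with a window and 2.27% of all 32851 windows. The share was 4 of 7 for the helicase genes, 3 of 5 for the origin genes, 4 of 7 for the polymerase and primase genes and 0 of 5 for nucleotide synthesis. NF-Y letters stood in 22 of the 36 (61.1%, against 42.0% of genes on the arrays), the Sp1 letters GGGCGG in 27 (75%, against 57.3%) and TTTGAA, the CHR element of genes of late cell cycle, in 5 (13.9%, against 15.7%). A match is a description of the letters and shows no binding. Of the 13 genes with an E2F match, 12 differed by more than 0 between Pax5KO and WT engrafted cells, as did 15 of the 23 without one. The median difference was 0.40 with a match and 0.37 without.

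Between the progenitor stages, Ly6D+ CLP were compared with Ly6D- CLP, the step at which lymphoid progenitors turn towards the B lineage. None of the 44 genes was called with limma, where 1.44% of all genes were, and 6 had an unadjusted p under 0.05 (9.94% of all genes). The difference was above 0 for 24 genes, with a median of 0.09. In 8 genes both Ly6D+ arrays lay above both Ly6D- arrays (12.1% of all genes) and in 5 they lay below (10.4%). E2f8 had the largest difference, with 8.63 and 9.49 in Ly6D+ CLP against 8.09 and 7.42 in Ly6D- CLP (1.31, SE 0.46, limma adjusted p = 0.331). Cdc45 came next, with 6.80 and 6.08 in Ly6D+ CLP against 6.16 and 4.58 in Ly6D- CLP (1.07, SE 0.50, limma adjusted p = 0.494), and its groups overlapped. Without Ly6D- CLP array 1, Cdc45 (1.86, limma adjusted p = 0.0442) and Prim2 (1.49, limma adjusted p = 0.00185) were called higher. That fit rests on 1 Ly6D- CLP array, which is assumed to vary like the arrays of the other groups, as in every fit that leaves out an array of a pair. The array that remains, array 2, carried granulocyte transcripts, such as S100a8 at 10.59 against 2.39 on array 1. Without array 2 none was called and the median difference was -0.09.

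From Ly6D+ CLP to ProB cells, Ccne2, Rfc3 and Orc1 rose and no gene fell, where 7.32% of all genes were called, 1.94% higher and 5.38% lower (3.2% and 9.85% of the brighter genes). In 21 genes both ProB arrays lay above both Ly6D+ arrays (12.6% of all genes, 20.3% of the brighter ones), and in 4 they lay below (21.2% and 36.4%). An unadjusted p under 0.05 was found for 10 of the 44 and for 17.8% of all genes. The median difference of the 44 genes was 0.39, while that of the 8534 brighter genes was -0.21. Setting the array medians equal moved every gene of this comparison up by 0.30, and the median of the 44 was then 0.69 with 8 genes called higher. The share of all genes called under that scaling is not given here. Ccne2 read 8.83 and 9.29 in ProB cells, against 6.66 and 7.16 in Ly6D+ CLP, with a rise of 2.15 (SE 0.39, limma adjusted p = 0.0128). Rfc3, a small subunit of the clamp loader, read 8.28 and 8.12 in ProB cells, against 5.68 and 6.13 in Ly6D+ CLP, and rose by 2.29 (SE 0.43, limma adjusted p = 0.0147). Orc1 read 6.50 and 6.66 in ProB cells, against 4.70 and 5.35 in Ly6D+ CLP, and rose by 1.55 (SE 0.35, limma adjusted p = 0.033). In all 3 genes the groups were separate by more than 1 log2 unit.

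Among the genes not called, Pola1, the catalytic subunit of polymerase alpha, read 9.33 and 10.04 in ProB cells against 7.90 and 7.96 in Ly6D+ CLP (1.76, SE 0.63, limma adjusted p = 0.161). Gmnn read 10.97 and 11.23 in ProB cells against 9.88 and 8.83 in Ly6D+ CLP (1.75, SE 0.47, limma adjusted p = 0.0624). Both were separate between the groups, as were Ccne1 (1.67) and E2f8 (1.13). The helicase ring did not move as a unit here: differences were below 0 for Mcm2, Mcm3, Mcm6 and Mcm7 and above 0 for Mcm4 and Mcm5, and none was called. Of the 3 calls, all ended without ProB array 2 (limma adjusted p = 0.0728 for Ccne2, 0.0542 for Rfc3 and 0.136 for Orc1), where instead Cdt1 was called lower (-0.98, limma adjusted p = 0.0433). The Orc1 call also ended without ProB array 1 (0.0656), Ly6D+ CLP array 1 (0.122), Pax5KO array 1 (0.0526), WT engrafted array 1 (0.051) or either PreB array (0.0571). The Rfc3 call also ended without Ly6D+ CLP array 1 (0.0535). Without either Ly6D- CLP array, or without Ly6D+ CLP array 2, 5 genes were called, 4 higher and 1 lower. Xist was high in ProB cells and at the floor in Ly6D+ CLP, and under a term for it 1 gene, Ccne2, was called and the median difference was -0.05. Plasma cell markers summed to 44.3 and 45.7 in ProB cells against 27.7 and 27.3 in Ly6D+ CLP, led by Jchain and Igha. Sdc1 went the other way (7.95 and 8.63 against 10.11 and 9.02). The part of plasma cell transcripts in the differences was not tested.

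The step from ProB to PreB cells held most of the change. In PreB cells 18 of the 44 genes fell and none rose, where 11.5% of all genes were called, 5.19% lower and 6.35% higher (10.1% and 10.3% of the brighter genes). The difference was below 0 for 38 genes, with a median of -1.30 against 0.03 over the brighter genes. In 33 genes both PreB arrays lay below both ProB arrays, which held for 19.4% of all genes and 34.4% of the brighter ones, and in 1, Rrm2, they lay above (22.4% and 37.1%). An unadjusted p under 0.05 was found for 28 of the 44 and for 21.8% of all genes. Every functional block but the last held calls: 5 of 10 helicase genes, 2 of 6 origin genes, 3 of 6 clamp and loader genes, 2 of 9 polymerase and primase genes, both lagging-strand genes, 1 of 3 single-strand binding genes, 3 of 5 nucleotide synthesis genes and 0 of 3 S phase regulators.

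Orc1 fell the most. It read 3.11 and 2.97 in PreB cells, against 6.50 and 6.66 in ProB cells, a fall to near the floor of the table. Orc1 fell by 3.54 (SE 0.35, limma adjusted p = 0.00051). Orc2, another subunit of the complex, was called lower as well (-1.50, SE 0.30, limma adjusted p = 0.0133), whereas Orc6 (-0.22), Cdc6 (0.23) and Cdt1 (-0.32) were not called. Of the helicase, Gins2, a GINS subunit, read 5.25 and 4.15 in PreB cells, against 8.01 and 7.85 in ProB cells. It fell by 3.23 (SE 0.51, limma adjusted p = 0.00465). Mcm2 read 7.37 and 7.93 in PreB cells, against 10.12 and 9.82 in ProB cells, and thus fell by 2.32 (SE 0.35, limma adjusted p = 0.00398).

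By the brightest probe sets the helicase ring was uneven in this step. Mcm3 fell by 1.30 and Mcm7 by 0.84, and the GINS subunit Gins1 by 1.68, while Mcm4 read 12.35 and 12.52 in PreB cells against 11.88 and 12.64 in ProB cells. Mcm5 and Mcm6 differed by -0.31 and -0.22. For Mcm5 and Mcm6 the probe set decided the call. A second probe set of Mcm6 differed by -1.76 (SE 0.26, limma adjusted p = 0.00401 over all probe sets) and the third by -0.03, and a second of Mcm5 differed by -3.09 (SE 0.42, limma adjusted p = 0.0029) and the third by -0.70. The other probe set of Mcm4 differed by -0.88 (limma adjusted p = 0.308). Over all 96 probe sets of the 44 genes, 32 were called lower and none higher in PreB cells. Of the 78 with a mean above 4, 69 differed by less than 0. The matching shares over all probe sets are not given here, so these counts have no background beside them. The brightest genes differed least. The 8 genes with a mean of at least 12 had a median difference of -0.32, and the 8 with a mean under 8 had one of -1.53. Over the 44 genes Spearman's rho between mean level and difference was 0.41 and Pearson's r 0.46, a description over genes read on the same arrays; over the 8534 brighter genes rho was 0.003.

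At the fork, 3 of the 5 clamp loader genes fell, Rfc5 by 2.57, Rfc2 by 2.17 and Rfc3 by 1.73 (its dimmer probe set differed by 0.01), while Rfc1, the large subunit, differed by 0.03 and Rfc4 by -1.02. Pold2, the accessory subunit of polymerase delta, fell by 2.52 (SE 0.46, limma adjusted p = 0.00978) and Pole2, that of polymerase epsilon, by 1.30 (SE 0.25, limma adjusted p = 0.0118). The catalytic subunits Pola1 and Pole had the largest differences among the genes not called, at -1.98 and -1.62 (limma adjusted p = 0.0845 and 0.0709), with both groups separate. Pold1, the catalytic subunit of polymerase delta, differed by -0.50, and Prim1, the primase subunit that makes the primer, by -0.06. Their other probe sets were called lower, Pold1 by -1.63 (limma adjusted p = 0.00348 over all probe sets) and Prim1 by -1.01 (limma adjusted p = 0.0446). Lig1, the ligase of the lagging strand, read 8.59 and 8.73 in PreB cells, against 10.69 and 10.73 in ProB cells. With such narrow spread it fell by 2.05 (SE 0.26, limma adjusted p = 0.00182). Fen1 fell by 1.33, and Rpa2, the middle subunit of the single-strand binding complex, differed by -2.24 and was called.

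Nucleotide synthesis split between the subunits of 1 enzyme. Rrm1 read 9.52 and 9.34 in PreB cells, against 11.62 and 11.53 in ProB cells, and thus fell by 2.14 (SE 0.37, limma adjusted p = 0.00738). Rrm2 read 13.08 and 13.18 in PreB cells, against 11.96 and 12.82 in ProB cells. Both PreB arrays were thus the higher, with a difference of 0.74 (SE 0.30, limma adjusted p = 0.188), but the other 2 probe sets of Rrm2 differed by -2.04 and -0.46, so its direction depends on the probe set. Without ProB array 2 it was called higher (1.17, limma adjusted p = 0.0468). Tk1 read 5.90 and 6.12 in PreB cells, against 9.06 and 8.81 in ProB cells, and thus fell by 2.92 (SE 0.54, limma adjusted p = 0.00947). Dut, which clears dUTP and yields the precursor of thymidylate, fell by 2.28 (SE 0.27, limma adjusted p = 0.00114). Thymidylate synthase (Tyms) was dim throughout, between 2.76 and 6.15, and differed by -1.35 without a call. Ccne2 and E2f8 stood at like levels in both stages: Ccne2 read 9.36 and 9.22 in PreB cells against 8.83 and 9.29 in ProB cells, and E2f8 10.20 and 10.34 against 9.89 and 10.50.

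**Figure D4:**
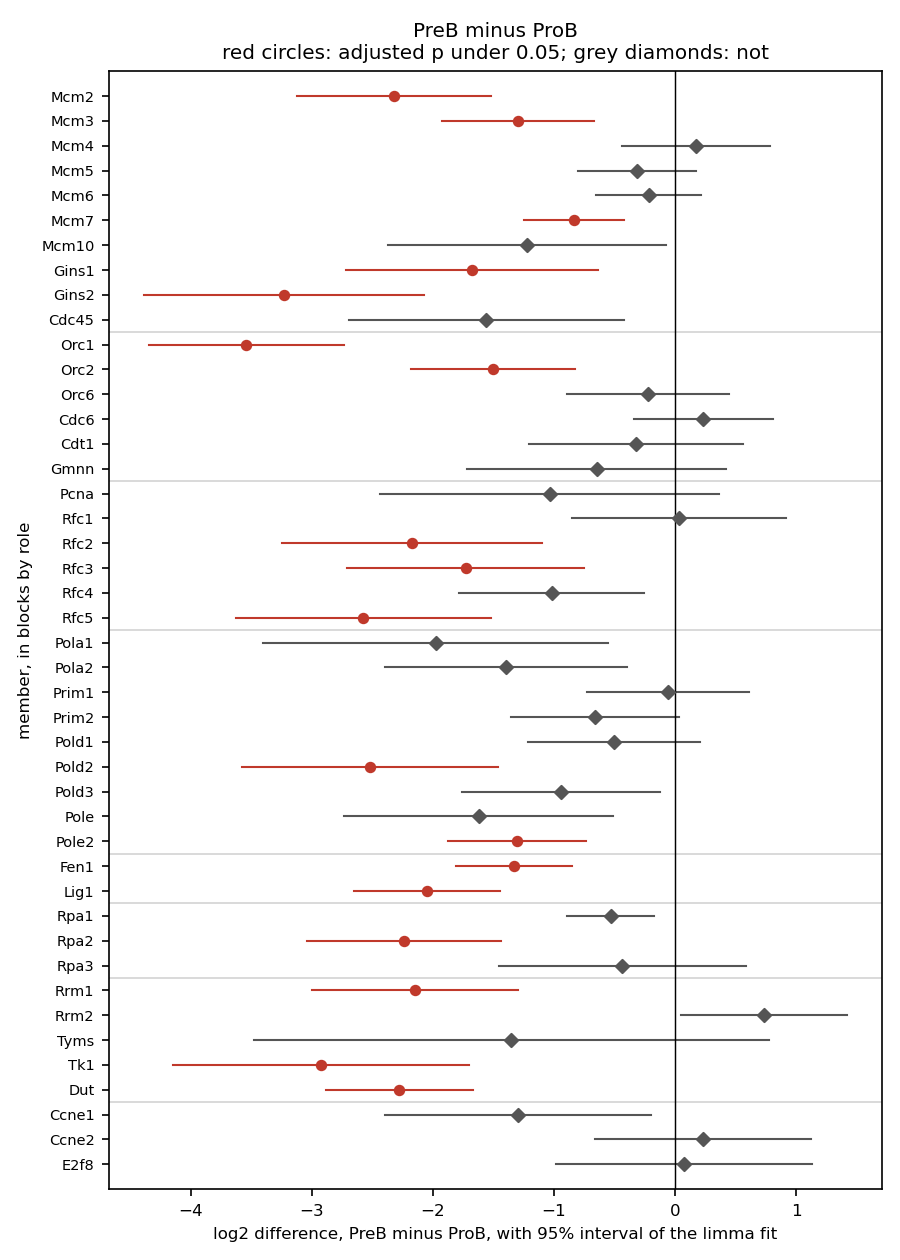
Log2 difference of each of the 44 genes, PreB minus ProB cells, with the 95% interval of the limma fit, in blocks by role. The 18 called genes lie between -0.84 (Mcm7) and -3.54 (Orc1), and no gene is called above 0.

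Of the 18 calls, 10 held under each of the 14 arrays left out: Mcm2, Gins2, Orc1, Rfc5, Fen1, Lig1, Rpa2, Rrm1, Tk1 and Dut. Gins1 ended under most of them (highest limma adjusted p = 0.238). Without ProB array 2 the calls of Mcm7, Gins1, Orc2, Rfc2, Rfc3, Pold2 and Pole2 ended, without PreB array 3 those of Mcm3, Mcm7, Gins1, Rfc2, Rfc3 and Pole2, and without PreB array 2 those of Mcm7, Gins1, Orc2 and Rfc2. Mcm3 and Rfc3 also ended without ProB array 1, and Rfc3 without Pax5KO or WT engrafted array 1. With all probe sets of a gene averaged, Orc2, Rfc2, Rfc3 and Pole2 lost the call (limma adjusted p = 0.434, 0.0656, 0.228 and 0.212), and 6 other genes gained one, all lower in PreB cells: Mcm5 (-1.37), Mcm6 (-0.67), Rfc4 (-0.98), Pold1 (-1.07), Rpa1 (-0.96) and the S phase cyclin Ccne1 (-2.06, limma adjusted p = 0.028). Fitted to the PreB and ProB arrays alone, 5 genes were called lower: Orc1, Lig1, Rrm1, Tk1 and Mcm10. Other measures moved with this step. The granulocyte markers summed to 70.6 and 73.5 in PreB cells against 21.6 and 22.0 in ProB cells, led by S100a8 (12.02 and 12.85 against 3.18 and 3.29), with Elane at the floor on all 4 arrays. The actin 3' to 5' gap was 7.27 and 6.71 in PreB cells against 2.73 and 3.67 in ProB cells. The Gapdh gap was 4.88 and 4.35 in PreB cells against 2.40 and 3.32 in ProB cells. Xist was at the floor in PreB cells and read 10.71 and 11.49 in ProB cells, and under a term for it, whose size rests on the WT engrafted arrays alone, Orc1 and Dut stayed called and the median difference was -0.72. The monocyte and macrophage markers summed to 28.1 and 28.0 in PreB cells against 17.7 and 18.0 in ProB cells (4 of 5 above the floor on each array, Lyz2 at 9.80 and 10.32 against 5.94 and 6.19). The 4 NK cell markers summed to 17.7 and 20.3 against 9.31 and 9.44, led by Gzma (10.31 and 10.95 against 2.35 and 2.47). Only 1 and 2 of the 4 were above the floor on the PreB arrays, with Ncr1 and Klrk1 at the floor on both. The 3 plasmacytoid dendritic cell markers summed to 18.6 and 20.6 against 10.6 and 10.3, led by Ccr9 (10.49 and 10.38 against 2.93 and 2.97). Of these 3, Bst2 did not rise (4.49 and 5.08 against 5.37 and 4.99). The 5 plasma cell markers summed to 42.3 and 29.8 in PreB cells against 44.3 and 45.7 in ProB cells, with Igha at 8.12 and 3.36 against 11.91 and 11.95. The part of these other cell types' transcripts and of the actin and Gapdh gaps in the falls was not tested.

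**Figure D5:**
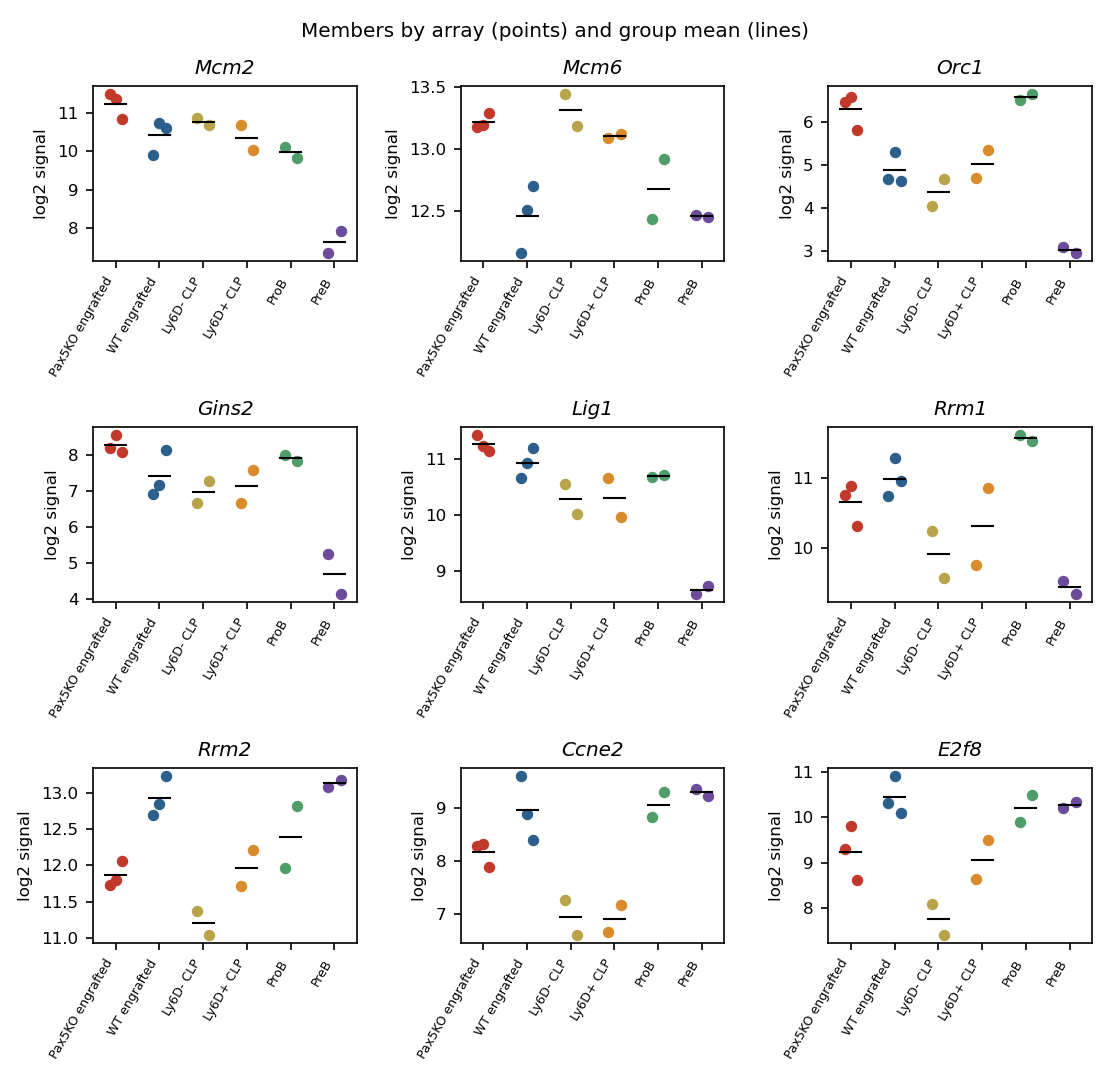
Log2 signal of 9 of the genes on each array (points) with the mean of each group (lines), each panel on its own scale. The Orc1 probe set shown is high in Pax5KO and ProB cells and close to 3 in PreB cells, whereas the Rrm2 probe set shown, Ccne2 and E2f8 are not lower in PreB than in ProB cells by group mean.

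Engrafted and ProB cells differ in transplant and donor age, and Pax5KO cells also in Pax5 genotype. The ProB gate, which is not given, may differ too. Xist was high on both ProB arrays and at the floor on WT engrafted arrays 1 and 2. The 2 comparisons with ProB cells are therefore set side by side, and they share the ProB arrays. Against ProB cells, Pax5KO cells had 0 of the 44 genes called by limma (12 at an unadjusted p under 0.05, against 15.6% of all genes), where 5.25% of all genes were called, 4.23% higher and 1.02% lower. In 13 genes all Pax5KO arrays lay above both ProB arrays (19.5% of all genes) and in 9 they lay below (8.28%). WT engrafted cells had 3 called lower and 0 higher, where 4.94% of all genes were called, 1.3% lower and 3.64% higher. In 2 genes all WT engrafted arrays lay above both ProB arrays (16.2% of all genes), in 11 they lay below (10.5%), and 7 had an unadjusted p under 0.05 (15.8%). The median difference was 0.10 for Pax5KO and -0.16 for WT engrafted cells, beside 0.33 and 0.22 over the brighter genes. Setting the array medians equal moved these comparisons by -0.36 and -0.27, which put the medians of the 44 genes at -0.26 and -0.43. Relative to the other genes, then, they lay below ProB levels in both engrafted groups, and the sign of the Pax5KO value depends on the scaling.

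Orc1 differed by -0.29 (SE 0.32) between Pax5KO and ProB cells by its brighter probe set and was called lower with both averaged (-1.23, limma adjusted p = 0.0478), and in WT engrafted cells it fell by 1.70 (SE 0.32, limma adjusted p = 0.0223). Fen1 fell by 0.97 (SE 0.19, limma adjusted p = 0.0266) in WT engrafted cells, and Orc2 was lower too (-1.20, SE 0.27, limma adjusted p = 0.0432). Fen1 read 11.27, 11.56 and 11.82 in WT engrafted cells against 12.61 and 12.44 in ProB cells, and Orc2 7.05, 7.55 and 7.52 against 8.22 and 8.93, all without overlap. These calls were thin: none was left without ProB array 2 or without WT engrafted array 1, and Fen1 and Orc2 lost theirs without WT engrafted array 2 (limma adjusted p = 0.0735 and 0.0809). Orc1 and Orc2 lost theirs without WT engrafted array 3 (0.053 and 0.0645), Fen1 without ProB array 1 (0.0786), and Orc2 also without Pax5KO array 1 (0.0714), either PreB array (0.0708), either Ly6D- CLP array (0.0536) or either Ly6D+ CLP array (0.0603). The largest differences not called in WT engrafted cells were -1.90 for Pola1 (limma adjusted p = 0.112) and -1.12 for Gins1 (limma adjusted p = 0.211). In Pax5KO cells it was 1.55 for Pola2 (limma adjusted p = 0.0671), followed by -1.51 for Ccne1 (limma adjusted p = 0.101). Without WT engrafted array 1, Mcm2 (1.26) and Mcm7 (0.50) were called higher in Pax5KO than in ProB cells (limma adjusted p = 0.0475 and 0.032). Pola2 read 10.15, 10.16 and 9.73 in Pax5KO cells, 8.44, 9.15 and 9.55 in WT engrafted cells and 8.48 and 8.44 in ProB cells, so all Pax5KO arrays lay above both ProB arrays, while WT engrafted array 1 fell beside them.

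Further genes of the same processes, from lists of 77 genes of which 73 were measured, followed in part. In Pax5KO against WT engrafted cells 9 of the 73 rose and 3 fell, mostly in nucleotide synthesis (8 higher and 2 lower of 33), where 3.65% of all genes were called higher and 2.3% lower (6.78% and 4.11% of the brighter genes). Dctd, a deaminase that feeds thymidylate synthesis, rose by 3.47, and Impdh1, an enzyme of guanine nucleotide synthesis, by 3.32. Rrm2b, the reductase subunit used outside S phase, fell by 3.81 (limma adjusted p = 0.00241). Impdh1 read a mean of 9.90 in Pax5KO cells and 6.58 in WT engrafted cells (limma adjusted p = 0.000205). The other 6 genes of this list that rose differed by 0.80 to 1.77, and Samhd1, which degrades deoxynucleotides, fell by 3.14. Among 17 further fork genes, Rnaseh2a, which removes RNA from DNA, rose by 0.74 and Pold4, a small polymerase delta subunit, fell by 1.48. Of 14 further origin and helicase genes and 9 of chromatin assembly, none was called with limma (unadjusted p under 0.05 for 1 and 3).

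In PreB against ProB cells 23 of the 73 fell and 3 rose, where 5.19% of all genes were called lower and 6.35% higher (10.1% and 10.3% of the brighter genes). The 3 that rose were Samhd1 (means of 10.24 in PreB and 5.24 in ProB cells), Rrm2b by 4.78 and Ctps2, a CTP synthetase, by 1.51. The part of other cell types' transcripts in these rises was not tested. Of the 33 nucleotide synthesis genes 16 fell, and Dctpp1, a nucleotide pyrophosphatase, differed the most (-4.08). Rnaseh2a fell by 2.74 among the fork genes, Recql4, a helicase used in initiation, by 2.55 among the origin genes, and the chromatin assembly subunit Chaf1b by 3.74. The list medians were -1.53 for nucleotide synthesis, -1.40 for the fork, -0.39 for origins and helicase and -0.40 for chromatin assembly, against 0.03 over the brighter genes. In Ly6D+ against Ly6D- CLP 3 of the 73 rose (0.809% of all genes did): Mthfd2, a mitochondrial folate enzyme, by 2.53, Chtf18, of an alternative clamp loader, by 2.34 and Impdh1 by 1.96. In ProB cells against Ly6D+ CLP, 1.94% of all genes rose and 5.38% fell (3.2% and 9.85% of the brighter genes). Of the 73, 2 rose, Mthfd2 by 1.94 and the histone chaperone Asf1b by 1.91. Another 3 fell: Dnmt1, which copies DNA methylation, by 1.63, Samhd1 by 1.64 and Ctps2 (-1.20).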

How the data were processed

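RNA of 14 samples was read on Affymetrix mouse arrays. The authors deposited log2 signals of 45101 probe sets, with 1 column for each array. RMA, GCRMA and limma were used by the authors per the submitters' processing notes; their versions, and whether RMA or GCRMA gave the final values, are not given in the sources used here. Low values share a floor, which compresses differences of dim genes, and arrays give no counts, so their number (2 or 3 a group) limits the precision. Samples were grouped by their titles.

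Probe sets were named from the platform annotation, updated to RefSeq symbols (GRCm38.p6): 34945 had 1 symbol, 932 several, 9160 none here, and 64 were controls. Only those with 1 symbol were used. Limma 3.58.1 (R 4.3.3; lmFit, eBayes) fitted 1 mean per group to all 14 arrays, with 8 residual degrees of freedom, two-sided tests and Benjamini-Hochberg adjustment over 18162 genes. The fit was tested on simulated data. Genes with a mean of at least 4 over the arrays served as the brighter background.

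The members and gene lists were chosen with earlier results of these data known. Named in each comparison are all called members and the 2 uncalled ones with the largest difference, and of each other list its counts and at most 3 called genes; further members that illustrate a functional block, and list genes where 5 or fewer moved one way, were chosen after their values were seen. Samples with the same replicate number were checked for pairing by the correlation of their deviations from group means: it was 0.132, 0.301 and 0.538 for the engrafted arrays, so a block on the number is given there, and -0.04 to 0.08 in the other groups, where the numbers do not pair. PreB titles number their arrays 2 and 3, and descriptions 1 and 2. Alternatives changed the probe set choice, the arrays fitted, weights, dim and floor filters, scaling, prior, block and a Xist term. Promoter windows and letters were searched with Python 3.11.15.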

Additional observations from a re-analysis of the deposited data

How the results depend on the processing

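Each comparison kept the sign of its median difference under the alternatives run, except as given here, and no called gene reversed. Equal array medians moved every gene of Ly6D+ against Ly6D- CLP by -0.092. That is more in size than the median of 0.087 of the 44 genes, so its sign changed. Fitting only the compared arrays left 0 genes called for Pax5KO against WT engrafted cells, 0 for ProB against Ly6D+ CLP, 5 for PreB against ProB and 0 for WT engrafted against ProB. Array weights gave 24, 20 higher and 4 lower, for Pax5KO against WT engrafted cells. They gave 0 for ProB against Ly6D+ CLP and 0 for WT engrafted against ProB. Over all comparisons the weights ended 11 calls, some of them among the 18 for PreB against ProB. The share of all genes called is not given beside the counts under the alternatives. A larger count, such as the 24, therefore does not set the 44 genes apart from other genes. With the replicate number as a block, 1 gene was called for Pax5KO against WT engrafted cells and 1 for WT engrafted against ProB, and the test over the 6 groups called 16; the other counts moved by less than 1.5 times, although the block ended the calls of Rfc3 for ProB against Ly6D+ CLP (limma adjusted p = 0.0532) and of Mcm3 and Rfc3 for PreB against ProB (0.0513 and 0.0859), and gave calls to Prim1 (0.0418) in the first and Rfc4 (0.0353) in the second. With a term for Xist the counts were 0, 1, 2 and 0 for Pax5KO against WT engrafted cells, ProB against Ly6D+ CLP, PreB against ProB and WT engrafted against ProB, and the medians 0.13, -0.055 and -0.72 for the 3 first of these. For ProB against Ly6D+ CLP, 5 genes were called with averaged probe sets, 5 without dim genes, 5 without genes at the floor, 8 with equal array medians and 6 with quantile normalization, and the last 2 gave medians of 0.69 and 0.56. Averaged probe sets gave a median of -0.98 for PreB against ProB. For Pax5KO against ProB, 4 genes were called with averaged probe sets, 3 without dim genes, 3 without genes at the floor and 5 with equal medians, with medians of -0.26 (equal) and -0.23 (quantile). For WT engrafted against ProB these scalings gave medians of -0.43 and -0.40. Leaving out each of the 14 arrays gave 0 to 4 calls and medians of 0.28 to 0.46 for Pax5KO against WT engrafted cells. The ranges were 0 to 2 calls and -0.10 to 0.23 for Ly6D+ against Ly6D- CLP, 1 to 5 calls and 0.20 to 0.47 for ProB against Ly6D+ CLP, and 12 to 21 calls and -1.30 to -1.19 for PreB against ProB. They were 0 to 2 calls and -0.053 to 0.18 for Pax5KO against ProB, 0 to 3 calls and -0.40 to 0.020 for WT engrafted against ProB, and 14 to 26 genes for the test over the 6 groups. Leaving out both engrafted arrays numbered 3, chosen after seeing the data, gave 2 calls, Orc1 and Rfc5. The cause of these shifts was not tested. With 2 or 3 arrays a group many differences may be missed. In data simulated for Pax5KO against WT engrafted cells on 18162 genes, 20% of the log2 differences of 1 were recovered. For those of 2 in size it was 44% to 66%. The simulation changed 50 genes at each difference, whereas the real comparison called 1080, so these rates need not hold for the real data. Dim genes such as Tyms lie near the floor.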

Other observations

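Genes of mitosis, the stage after replication, took another direction in Pax5KO cells. All 24 measured genes of a mitosis list differed by less than 0 between Pax5KO and WT engrafted cells, with a median of -0.71, and in 18 of them all Pax5KO arrays lay below all WT engrafted arrays (7.65% of all genes, 13.7% of the brighter ones). None was called by limma, and 14 had an unadjusted p under 0.05 (15.2% of all genes). In ProB cells against Ly6D+ CLP 8 of the 24 rose (1.94% of all genes did, 3.2% of the brighter ones). The largest rises were 3.35 for Plk1, a mitotic kinase, 2.67 for the spindle factor Tpx2 and 2.45 for the kinetochore motor Cenpe. In PreB against ProB cells 13 fell (5.19% of all genes did, 10.1% of the brighter ones). The largest falls were 5.25 for Plk1, 3.36 for Ccnf and 3.27 for the kinase Aurka. The letters TTTGAA stood in 16 of the 21 mitosis promoters with a window (76.2%), and E2F letters in 1 (4.76%).

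Regulators of entry into S phase changed in both directions in Pax5KO against WT engrafted cells, 6 higher and 6 lower of 30. Of all genes, 3.65% were called higher and 2.3% lower (6.78% and 4.11% of the brighter genes). The largest were Cdkn2d, an inhibitor of the cyclin D kinases, which fell by 3.88 (limma adjusted p = 0.029), E2f2, an activator of E2F target genes, which fell by 3.57, and Rb1, which restrains E2F factors and fell by 2.97. The largest rise on this list was 2.92. In PreB against ProB cells 4 rose and 8 fell (6.35% and 5.19% of all genes did, 10.3% and 10.1% of the brighter ones). The 4 rises are thus near the background. The D cyclins Ccnd3 and Ccnd2 differed by -4.25 and -3.68, and Cdkn1b, an inhibitor of cyclin kinases, was higher by 3.56.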
